A study of Homo sapiens with 16 samples.

Results

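The Dex-sensitive multiple myeloma line MM1S, treated with TAK-981 alone, was compared with the same line treated with vehicle. The comparison used 4 of the 16 RNA-seq libraries of the study, chosen by their labels: 2 libraries of MM1S cells kept for 48 h in TAK-981 (0.1 μM, the dose on the labels) and 2 libraries of MM1S cells given vehicle, for which the labels state no time. All genes of the table were read, and 14215 of its 23354 genes had enough counts to be tested. The other 12 libraries are MM1S after 1 μM Dex (dexamethasone, a synthetic glucocorticoid) or after the combination of both drugs (combo), and the Dex-resistant counterpart MM1R after the same 4 treatments, with 2 libraries in each group. The libraries were made from total RNA after removal of ribosomal RNA with Ribo-Zero. MM1S and MM1R are established human cell lines, so each value describes 1 line in culture. The labels number the replicates but do not say that they came from separate cultures. The p-values therefore measure only the spread between replicate libraries, estimated over all 16 libraries and not from the 4 alone.

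SUMO (small ubiquitin-like modifier) proteins are attached to lysines of target proteins by a cascade of an activating enzyme (E1), a conjugating enzyme (E2) and ligases, and are removed by SENP proteases. The E1 is a heterodimer of SAE1 and SAE2, which is encoded by UBA2. TAK-981 inhibits the E1 by forming an adduct with SUMO in its active site, so that conjugation stops while deconjugation goes on. Many SUMO targets are chromatin and transcription proteins, among them PML of nuclear bodies, the corepressor TRIM28 and the histone methyltransferase SETDB1. In leukocytes, SUMO conjugation is known to hold back type I interferon production and signaling.

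The 4 libraries held between 18998753 and 20644510 counts each. A first principal component with 87.5% of the variance of log2 CPM separated the TAK-981 libraries from the vehicle libraries, and 10.8% lay along a second one that parted the 2 TAK-981 libraries. Counts of replicates lay further apart than sampling alone gives. Their chi-square, divided by its degrees of freedom, was 5.26 for the vehicle pair and 21.7 for the TAK-981 pair, the largest of the 8 groups. That rank rests on the gene EXD3, described at the end. Without it the TAK-981 pair was at 19.1, below the 19.5 of the MM1S Dex pair. Of 12 plasma cell markers 11 were over 10 counts in every MM1S library here, with SDC1 (CD138) between 9762 and 11696 counts. Of 46 markers of B, T and NK cells, monocytes, fibroblasts, erythroid and epithelial cells 39 were at 0 to 13 counts, 15 of them at 0 in all 4 libraries. The other 7 were over 10 counts in every library. They were CR2 of B cells (972 to 1132 counts), the T cell gene CD3E (61 and 65 counts with vehicle, 34 and 41 with TAK-981), ITGAM of monocytes (18 and 28 against 62 and 71), PDGFRB of fibroblasts (55 and 58 against 20 and 23), HBB (50 to 69), GNLY (14 to 19) and COL1A1 (13 to 18). All 46 summed to 1250 and 1408 counts with vehicle and 1283 and 1331 with TAK-981, and their part in the results below was not tested. Levels below are CPM, counts per 1e6 counts after TMM scaling, and fold changes are log2 values of TAK-981 against vehicle. The standard error (SE) given with them is the absolute log2 fold change divided by the square root of edgeR's F statistic. It is therefore approximate, and for genes with few counts it can be too small. A gene was called at a Benjamini-Hochberg adjusted p under 0.05 over all genes tested, and "rose" or "fell" is written only of called genes. For genes given with values, a call of TAK-981 against vehicle in MM1S that was lost or gained is stated beside the gene, both for leaving out 1 library and for 6 other settings (RLE, upper quartile or library size scaling, no filter on low counts, DESeq2, and a fit of only the groups compared).

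TAK-981 treatment changed 6960 genes, 49% of those tested. Of these 3586 were higher (25.2%) and 3374 were lower (23.7%), and the median log2 fold change over all tested genes was 0.037 (quartiles −0.26 and 0.34). The balance turned with the scaling, with 4113 higher and 2954 lower genes by upper quartile, 3073 and 3808 by library size only and 2875 and 3213 by DESeq2. A change of at least 2-fold was seen for 728 higher genes (5.12%) and 684 lower genes (4.81%). Genes that rose at least 2-fold had a median level of 0.852 CPM in the vehicle libraries, and those that fell at least 2-fold had 21.7 CPM, against 23.8 CPM over all tested genes. Among the 1887 tested genes under 1 CPM with vehicle 20.2% rose at least 2-fold, against 0.625% of the 2399 genes over 100 CPM. A gene with almost no counts with vehicle has little room to fall, and it passed the filter on low counts only if other libraries held more, so these shares describe the genes tested and not all genes.

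**Figure D1:**
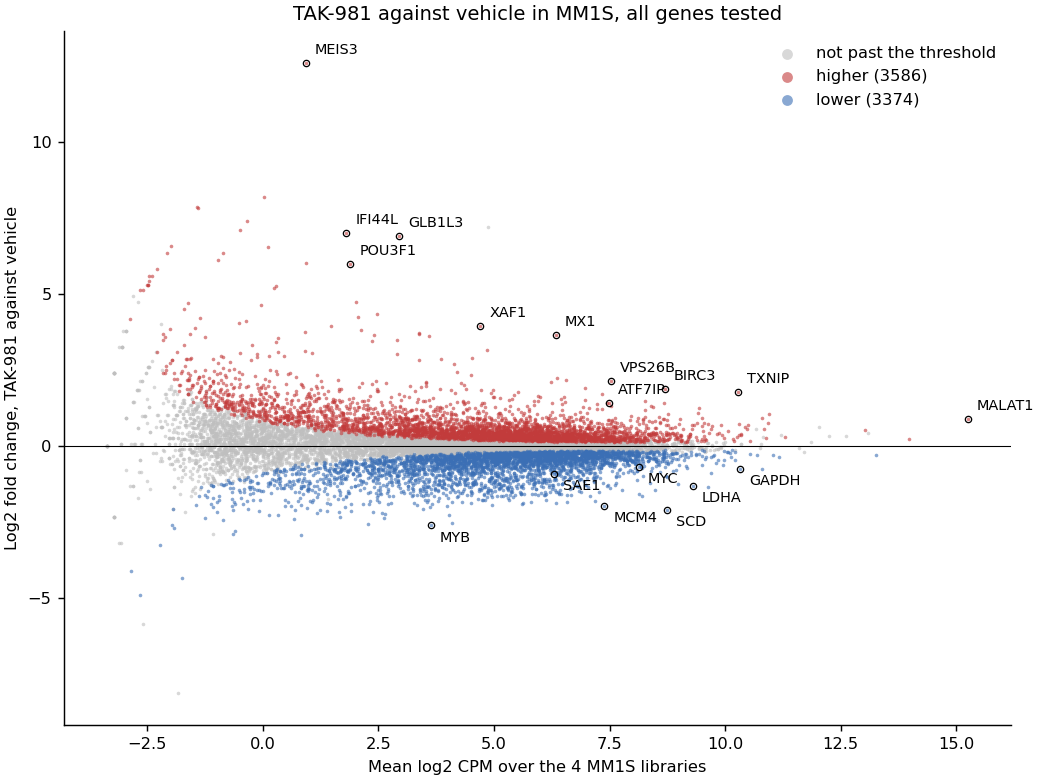
Log2 fold change of TAK-981 against vehicle in MM1S (vertical axis) against the mean log2 CPM over the 4 libraries (horizontal axis), 1 point for each of the 14215 genes tested. Genes higher at an adjusted p under 0.05 are red (3586), lower ones blue (3374) and the others grey, and genes described in the text are named. The height of a gene with almost no vehicle counts, such as MEIS3, depends on the prior count of the fit.

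The genes with the smallest adjusted p among abundant ones with a change of at least 2-fold were of several kinds. The higher ones included the antiviral GTPase MX1, the interferon-induced apoptosis regulator XAF1, the retromer subunit VPS26B, the mitochondrial dehydrogenase ACAD8, the protocadherin PCDH1 and TXNIP, an inhibitor of thioredoxin and of glucose uptake. TXNIP went from 726 and 615 to 2324 and 2316 CPM between the vehicle and TAK-981 libraries, and both treated libraries lay above both controls (log2 fold change 1.79, SE 0.068, adjusted p = 5.44e-13). PCDH1 went from 43.7 and 44.4 to 195 and 201 CPM, again without overlap (log2 fold change 2.17, SE 0.067, adjusted p = 4.14e-14). DDIT4L, a relative of the mTOR inhibitor REDD1, rose with log2 fold change 2.90, SE 0.11, adjusted p = 5.46e-13. The lower ones included the fatty acid desaturase SCD, the replication helicase subunit MCM4, the checkpoint adaptor CLSPN and the ubiquitin ligase substrate receptor DTL. SCD went from 876 and 882 to 201 and 213 CPM, and its treated libraries lay below the controls (log2 fold change −2.09, SE 0.07, adjusted p = 1.08e-13). The largest falls among called genes with a mean log2 CPM of at least 1 were in MYB, a transcription factor of hematopoietic progenitors (from 32.6 and 28.2 to 4.62 and 5.4 CPM, log2 fold change −2.60, SE 0.12, adjusted p = 7.96e-12), SLC43A3, a purine base transporter (−2.55, adjusted p = 6.06e-10), AK4, a mitochondrial adenylate kinase (−2.53, adjusted p = 2.12e-09), CTDSPL, a phosphatase of the RB protein (−2.35, adjusted p = 9.52e-10), and GPC6, a glypican (−2.33, adjusted p = 2.59e-09). In each of these 5 genes both TAK-981 libraries lay below both vehicle libraries.

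Among the genes of the SUMO pathway itself, those of the enzyme that TAK-981 inhibits were lower. SAE1 was at 109 and 107 CPM in the vehicle libraries and 56.4 and 58.8 CPM in the TAK-981 libraries. The treated libraries lay well below the controls (log2 fold change −0.90, SE 0.064, adjusted p = 1.59e-09). UBA2, the catalytic subunit, was at 181 and 171 CPM in the vehicle libraries and 131 and 117 CPM in the TAK-981 libraries. It also fell without overlap (log2 fold change −0.51, SE 0.072, adjusted p = 1.25e-05). Of the modifiers, SUMO2 rose by 0.24 (adjusted p = 0.0255; no longer called without the first TAK-981 library, with adjusted p = 0.115, or the second vehicle library, with adjusted p = 0.35, and not called in 3 of 6 other settings) and SUMO3 by 0.67 (adjusted p = 5.13e-08). Of the 26 tested genes for modifiers, E1, E2, ligases, proteases and SUMO-targeted ubiquitin ligases 7 rose (26.9%) and 6 fell (23.1%). These shares were near the 25.2% and 23.7% of all genes. The median of the list was −0.034 against 0.037 over all genes (−0.075 to 0.077 without 1 library). Those that rose included the ligase PIAS3 (0.36, adjusted p = 0.000987), and the protease SENP1 fell (−0.35, adjusted p = 0.000337).

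Genes of PML nuclear bodies, structures built on SUMO conjugates of PML, were read next. Of 13 tested, 6 rose (46.2%, against 25.2% of all genes) and 1 fell. SP100, a body component that interferon also induces, went from 73.1 and 72.7 to 145 and 123 CPM (log2 fold change 0.88, SE 0.082, adjusted p = 6.44e-08). PML went from 70.1 and 75.4 to 91.1 and 103 CPM (log2 fold change 0.42, SE 0.075, adjusted p = 0.000151). The histone H3.3 chaperone partner DAXX rose by 0.33 (adjusted p = 0.00241), and ATRX, its remodeler, had 0.12 (adjusted p = 0.184).

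Interferon-stimulated genes were higher in nearly the whole list. Type I interferon signals through IFNAR1 and IFNAR2, JAK1 and TYK2 to STAT factors and IRF9, which bind interferon-stimulated response elements (ISRE) in promoters. To show this element, a window of 60 bases placed around it is given for 5 such genes from their RefSeq promoters (GRCh38.p14), with the ISRE core in capitals. The core can lie some way before the start of transcription, as for RSAD2, so not every window holds the start. PARP9, PARP14, DTX3L and RSAD2 were picked for this after their values were seen. PARP9 and DTX3L start back to back, so that their windows are the same bases on opposite strands.
MX1 (chr21:41420544-41420603, plus strand): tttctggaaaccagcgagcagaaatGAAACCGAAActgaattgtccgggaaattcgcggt
PARP9 (chr3:122564307-122564366, minus strand): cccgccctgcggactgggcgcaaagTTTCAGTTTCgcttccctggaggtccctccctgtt
PARP14 (chr3:122680785-122680844, plus strand): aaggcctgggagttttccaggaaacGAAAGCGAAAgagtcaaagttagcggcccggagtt
DTX3L (chr3:122564307-122564366, plus strand): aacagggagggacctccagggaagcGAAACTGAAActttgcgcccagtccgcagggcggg
RSAD2 (chr2:6877607-6877666, plus strand): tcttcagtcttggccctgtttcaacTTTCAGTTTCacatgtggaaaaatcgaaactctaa
The core searched was GAAA, any 2 bases and GAAA again, on both strands in the 300 bases around each RefSeq start (250 before, 50 after). It was found for 4.25% of the 11156 tested genes with such a promoter. Only 49 of the 68 tested interferon-stimulated genes had one, under 80%, so no share was read for that list. Of the 18 of 22 tested genes of MHC class I presentation with a promoter 61.1% held the core. A match is a run of letters and not a measured binding site.

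Of the 68 tested interferon-stimulated genes 63 rose, against 25.2% of all genes, and 1 fell. Their median log2 fold change was 1.31 (quartiles 0.64 and 2.71). MX1 (chromosome 21, 42792520 to 42831141, plus strand, hg19) was at 22.5 and 22.5 CPM in the vehicle libraries and 292 and 281 CPM in the TAK-981 libraries. The treated libraries stood far above the controls and close to each other (log2 fold change 3.67, SE 0.073, adjusted p = 1.04e-16). XAF1 was at 6.48 and 6.66 CPM in the vehicle libraries and 115 and 88.6 CPM in the TAK-981 libraries. Its treated libraries were spread more widely, still far above the controls (log2 fold change 3.95, SE 0.13, adjusted p = 3.31e-13). ISG15, a ubiquitin-like modifier that interferon induces, went from 1.32 and 1.59 to 16.5 and 20.1 CPM (log2 fold change 3.65, SE 0.18, adjusted p = 1.07e-11). IFIT1, which binds viral RNA lacking cap methylation, went from 3.1 and 2.56 to 40.8 and 32.9 CPM (log2 fold change 3.69, SE 0.23, adjusted p = 5.7e-09). OAS1, an activator of RNase L, went from 22.6 and 24.9 to 71.7 and 64.5 CPM (log2 fold change 1.52, SE 0.077, adjusted p = 1.76e-11).

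Several members started from almost nothing. IFI44L had 3 and 8 counts with vehicle and 782 and 592 with TAK-981, and the helicase DDX60 had 25 and 23 counts with vehicle and 528 and 398 with TAK-981 (log2 fold change 4.34, SE 0.22, adjusted p = 4.24e-11). The list had 1 member that fell, the guanylate-binding protein GBP2 (from 9.73 and 9.23 to 5.81 and 7.21 CPM, log2 fold change −0.54, SE 0.16, adjusted p = 0.00742), which was no longer called without the first TAK-981 library, with adjusted p = 0.0754, or the first vehicle library, with adjusted p = 0.0602, and not called in 1 of 6 other settings, DESeq2. Of the other tested guanylate-binding proteins, large GTPases typical of the interferon γ response, GBP1 rose by 0.60 (adjusted p = 3.69e-06) and GBP4 went from 1.93 and 2.46 to 26.3 and 22.7 CPM (log2 fold change 3.48, SE 0.14, adjusted p = 1.47e-12).

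Of the 24 tested interferon receptor, JAK, STAT, IRF and SOCS genes 16 rose and 2 fell, with a median of 0.33. IRF7, the factor that amplifies interferon α production, went from 16.7 and 16.1 to 55.3 and 56.2 CPM (log2 fold change 1.76, SE 0.075, adjusted p = 2.2e-12). Of the receptor chains, IFNAR1 rose by 0.36 (adjusted p = 0.000305) and IFNGR1 by 0.54 (adjusted p = 4.21e-05), and JAK1 had 0.10 (adjusted p = 0.134; called in 1 of 6 other settings, upper quartile scaling). JAK2 fell (−0.33, adjusted p = 0.00115).

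MHC class I genes, which present peptides to CD8 T cells, were higher. Of 22 tested, 16 rose and 4 fell, with a median of 0.60. HLA-B was at 433 and 456 CPM in the vehicle libraries and 999 and 1141 CPM in the TAK-981 libraries (log2 fold change 1.27, SE 0.08, adjusted p = 3.67e-10). B2M, the invariant light chain, was at 1283 and 1279 CPM in the vehicle libraries and 2668 and 2252 CPM in the TAK-981 libraries (log2 fold change 0.94, SE 0.075, adjusted p = 6.83e-09). In both genes the treated libraries lay above the controls without overlap. HLA-C rose by 0.63 (adjusted p = 2.79e-05) and the peptide transporter TAP1 by 0.68 (adjusted p = 5.3e-07). HLA genes are near-identical in part, and the counting could have split reads between them. NLRC5, the transactivator of class I genes, rose (log2 fold change 1.15, SE 0.10, adjusted p = 1.14e-08). The 4 that fell were the lectin chaperone CANX, the oxidoreductase PDIA3, the aminopeptidase ERAP1 and the proteasome activator subunit PSME2, the last named after its value was seen. Of 11 tested class II genes 3 rose (27.3%, near the 25.2% of all genes) and 1 fell. The gene that fell was CIITA, their transactivator (from 56.9 and 57.2 to 37.6 and 46.4 CPM, log2 fold change −0.44, SE 0.10, adjusted p = 0.000903), and HLA-DRA had −0.017 (adjusted p = 0.847).

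Ligands and checkpoints seen by NK and T cells were mixed. Of 20 tested, 9 rose (45.0%, against 25.2% of all genes) and 4 fell, a share below the 23.7% of all genes. Over the alternatives the number that rose ran from 6 to 9. The median was 0.35, and the alternatives gave 0.12 to 0.46. CD274 (PD-L1) rose (from 3.15 and 2.05 to 5.55 and 3.65 CPM, log2 fold change 0.81, SE 0.22, adjusted p = 0.00446) and was no longer called without the first TAK-981 library, with adjusted p = 0.109, or the second vehicle library, with adjusted p = 0.0823. Also higher were the adhesion molecule ICAM1 (0.96, adjusted p = 1.96e-08) and the 4-1BB ligand TNFSF9 (1.17, adjusted p = 1.74e-07). CD58, the ligand of CD2, fell (from 34.9 and 36.7 to 24.6 and 16.4 CPM, log2 fold change −0.80, SE 0.14, adjusted p = 0.000116), and so did the death receptor FAS (−0.58, adjusted p = 0.00014) and the NKG2D ligand MICB (−0.34, adjusted p = 0.000839). MICA had −0.11 (adjusted p = 0.467).

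**Figure D2:**
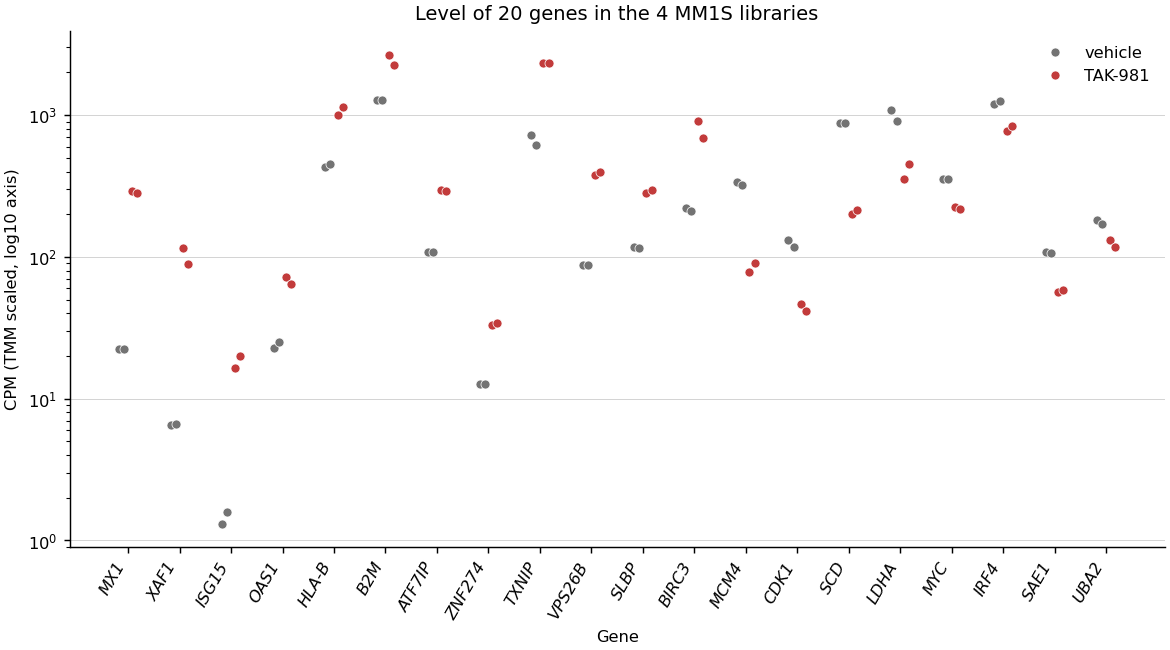
CPM on a log10 axis of 20 genes in the 4 MM1S libraries, 1 point per library (vehicle grey, TAK-981 red). In each of the 20 genes the 2 TAK-981 libraries lie on 1 side of the 2 vehicle libraries.

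Genes of heterochromatin silencing were the next group read, since TRIM28 and SETDB1 silence genes by SUMO-dependent histone H3 lysine 9 methylation. Of 24 tested, 6 rose and 12 fell, with a median of −0.24. The share that rose was near the 25.2% of all genes, and the share that fell was above the 23.7% of all genes. The number that rose ran from 1 to 6 over the alternatives. ATF7IP, which stabilizes SETDB1 in the nucleus, stood out with 109 and 109 CPM in the vehicle libraries and 294 and 291 CPM in the TAK-981 libraries. It had the largest rise of the list (log2 fold change 1.43, SE 0.055, adjusted p = 5.72e-13). SETDB1 rose by 0.18 (adjusted p = 0.0186; no longer called without the second TAK-981 library, with adjusted p = 0.161, the first vehicle library, with adjusted p = 0.0573, or the second vehicle library, with adjusted p = 0.0972, and not called in 3 of 6 other settings) and TRIM28 had −0.22 (adjusted p = 0.0656; called without the second TAK-981 library, with adjusted p = 0.00134, and called in 4 of 6 other settings). The maintenance DNA methyltransferase DNMT1 fell by 0.62 on the log2 scale (adjusted p = 1.85e-07). UHRF1, which recruits it to replicating DNA, is also counted in the DNA replication list and fell (from 42.8 and 43.5 to 10.4 and 13.3 CPM, log2 fold change −1.86, SE 0.11, adjusted p = 1.25e-10). The PRC2 methyltransferase EZH2 fell with log2 fold change −1.07, SE 0.062, adjusted p = 1.14e-10, and the H3 lysine 9 methyltransferase SUV39H2 with log2 fold change −1.26, SE 0.083, adjusted p = 5.13e-10.

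Zinc finger genes of the ZNF name, many of which encode KRAB repressors that recruit TRIM28, were read on chromosome 19, which holds clusters of them, and elsewhere. Of 210 tested on chromosome 19, 121 rose and 10 fell, with a median of 0.45 (quartiles 0.16 and 0.79). Of 243 tested on other chromosomes, 79 rose (32.5%, against 25.2% of all genes) and 33 fell, with a median of 0.16. The difference between these shares was not tested. ZNF274, which recruits SETDB1 to the 3′ ends of ZNF genes, had 12.6 and 12.8 CPM in the vehicle libraries and 33.2 and 34.1 CPM in the TAK-981 libraries. Both treated libraries lay above both controls (log2 fold change 1.40, SE 0.10, adjusted p = 2.84e-09). ZNF208 went from 4.79 and 5.59 to 19.6 and 16.5 CPM (log2 fold change 1.80, SE 0.13, adjusted p = 3.13e-09) and ZNF763 from 3.52 and 3.79 to 9.54 and 9.26 CPM (log2 fold change 1.36, SE 0.12, adjusted p = 4.51e-08). ZNF genes share long stretches of sequence, and reads could have been split between them. Over the whole of chromosome 19, with the 210 ZNF genes included, 37.7% of 931 tested genes rose and 11.6% fell. On the 22 other chromosomes read (1 to 22 without 19, and X) the share that rose ran from 13.4% on chromosome 13 to 29.2% on chromosome 20.

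A small number of genes were switched on from the floor. Of 8586 genes with both vehicle libraries at or under 3 counts, 221 were tested and 10 reached at least 30 counts in both TAK-981 libraries. No gene with at least 30 counts in both vehicle libraries fell to 3 or fewer in both treated ones. MEIS3, a homeobox gene (chromosome 19, 47906375 to 47922785, minus strand, hg19), had 0 and 0 counts with vehicle and 702 and 753 with TAK-981. Against a floor of 3 counts per library this is at least 255-fold higher. KNDC1, a guanine nucleotide exchange factor of neurons, had 1 and 0 counts with vehicle and 142 and 201 with TAK-981. DPYSL4, a collapsin response mediator, had 3 and 0 counts with vehicle and 147 and 143 with TAK-981, JPH2, a junctophilin of heart muscle, 3 and 3 counts with vehicle and 99 and 119 with TAK-981, and FBXO39, an F-box protein, 3 and 3 counts with vehicle and 113 and 116 with TAK-981. The other 5 (KCNT1, SCUBE1, GLB1L2, ADAMTS9 and IGSF9B) had between 32 and 104 counts after TAK-981. These genes lie on 8 chromosomes (3, 9, 10, 11, 17, 19, 20 and 22). MEIS3 was at 0 counts in both vehicle libraries of MM1R as well and at 440 and 519 after TAK-981 there.

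Genes that rose at least 2-fold sat side by side in places. Runs of at least 3 neighboring tested genes, each at least 2-fold higher, numbered 15 and held 55 genes. Runs of lower genes numbered 13 and held 45. Among the higher ones, the protocadherin genes PCDHGA8, PCDHGB5 and PCDHGA9 lay on chromosome 5, as did PCDHGA12, PCDHGC3 and PCDHGC4. These were counted as separate runs, though their spans overlap and both end at 140892548 in hg19. The runs were named after their values were seen. The run with the most genes held the last 10 tested genes of chromosome 11, from 131240371 to 134248235 in hg19 (3007.9 kb): NTM, MIR4697HG, IGSF9B, JAM3, NCAPD3, VPS26B, THYN1, ACAD8, GLB1L3 and GLB1L2. The gene before them, SNX19, had a log2 fold change of 0.23. GLB1L3, a β-galactosidase-like gene, was at 0.517 and 0.82 CPM in the vehicle libraries and 82.9 and 76.7 CPM in the TAK-981 libraries. It rose from near the floor in both treated libraries (log2 fold change 6.90, SE 0.15, adjusted p = 2.66e-16). VPS26B was at 88.1 and 88.3 CPM in the vehicle libraries and 375 and 399 CPM in the TAK-981 libraries and again higher in both treated libraries (log2 fold change 2.13, SE 0.066, adjusted p = 4.14e-14). ACAD8 was at 38.5 and 37.5 CPM in the vehicle libraries and 172 and 185 CPM in the TAK-981 libraries (log2 fold change 2.23, SE 0.068, adjusted p = 3.68e-14). NCAPD3, a condensin II subunit transcribed away from VPS26B, went from 189.8 and 177 to 538 and 493 CPM (log2 fold change 1.49, SE 0.06, adjusted p = 9.71e-13). Without a stated use of strand in counting, reads of overlapping neighbors cannot be told apart. In MM1R 9 of the 10 genes rose, and with Dex present 9 of 10.

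**Figure D3:**
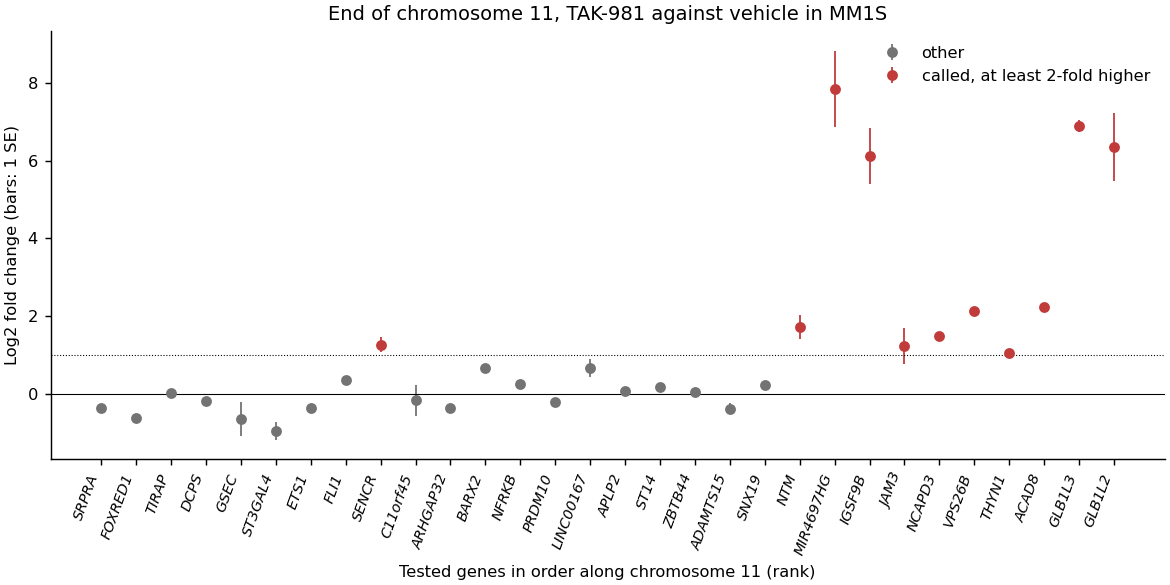
Log2 fold change of TAK-981 against vehicle in MM1S for the last 30 tested genes of chromosome 11 in their order along the chromosome (horizontal axis, gene rank, not distance), with bars of 1 SE. The last 10, from NTM to GLB1L2, are all at least 2-fold higher and the gene before them is at 0.23. Heights of genes with 0 or 1 vehicle counts depend on the prior count of the fit.

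Other runs were of known families or neighbors. OAS1, OAS3 and OAS2 with RASAL1 on chromosome 12, IFIT2, IFIT3 and IFIT1 on chromosome 10, and PARP9, DTX3L and PARP14 on chromosome 3 are interferon-stimulated clusters. The Prader-Willi region of chromosome 15 gave a run of 3 SNORD116 copies and IPW, of which the small RNAs had few counts and near-identical copies. FAM53A, SLBP and TMEM129 formed a run on chromosome 4, and FAM53A went from 0.564 and 0.923 to 18.8 and 21 CPM (log2 fold change 4.75, SE 0.21, adjusted p = 4.03e-12). JPH2, OSER1 and OSER1-AS1 formed one on chromosome 20, and ZNF763, ZNF433 and ZNF844 one on chromosome 19. Of the 13 runs of lower genes, 5 were of clustered histone genes on chromosome 6. The flap endonuclease FEN1 and the desaturases FADS1 and FADS2 formed one on chromosome 11, and CAV2, CAV1 and the receptor MET one on chromosome 7. POU3F1, a POU factor outside these runs, went from 0.47 and 0.359 to 26.2 and 27.8 CPM and was among the 5 largest rises of called genes with a mean log2 CPM of at least 1 (log2 fold change 6.0, SE 0.18, adjusted p = 3.68e-14).

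DNA replication genes fell almost without exception. S-phase genes are transcribed under E2F factors, which RB proteins hold in check until G1 cyclin kinases release them. Windows of 60 bases around an E2F motif in the promoters of 4 replication genes are shown from RefSeq (GRCh38.p14), with E2F motif letters in capitals. CDC6 is a key gene of the list, CLSPN and MCM6 were picked by rule, and TYMS after its value was seen.
CLSPN (chr1:35769950-35770009, minus strand): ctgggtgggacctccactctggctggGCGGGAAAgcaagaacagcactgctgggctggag
MCM6 (chr2:135876562-135876621, minus strand): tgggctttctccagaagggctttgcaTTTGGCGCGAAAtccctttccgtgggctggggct
CDC6 (chr17:40287860-40287919, plus strand): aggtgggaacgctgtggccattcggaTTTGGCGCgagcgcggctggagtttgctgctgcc
TYMS (chr18:657588-657647, plus strand): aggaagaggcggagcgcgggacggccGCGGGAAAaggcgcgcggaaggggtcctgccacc
The letters searched were TTTCCCGC, TTTCGCGC, TTTGCCGC and TTTGGCGC on both strands, which can overlap one another. A match was found for 48.9% of the 47 of 54 tested replication genes with a promoter, against 6.62% of the 11156 tested genes with one. For mitotic genes it was 6.67% of 45 of 53, near that background.

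Of the 54 tested replication genes 53 fell, against 23.7% of all genes, and 1 rose. The median log2 fold change was −1.34 (quartiles −1.56 and −1.08). MCM4, a subunit of the replicative helicase, was at 339 and 321 CPM in the vehicle libraries and 78 and 91.1 CPM in the TAK-981 libraries. Both treated libraries were far below the controls (log2 fold change −1.96, SE 0.074, adjusted p = 5.07e-13). MCM6 went from 185 and 177 to 47 and 53.6 CPM (log2 fold change −1.85, SE 0.081, adjusted p = 3.49e-12). CDC6, which loads the helicase at origins, went from 73.2 and 74.4 to 19.9 and 23.4 CPM (log2 fold change −1.77, SE 0.079, adjusted p = 3.87e-12). CLSPN, which activates the checkpoint kinase CHEK1 at stalled forks, went from 95.8 and 96.8 to 32.6 and 32.6 CPM (log2 fold change −1.56, SE 0.06, adjusted p = 6.12e-13). RRM2, the regulated subunit of ribonucleotide reductase, fell by 1.57 on the log2 scale (adjusted p = 3.67e-10) and PCNA, the sliding clamp, by 1.34 (adjusted p = 2.27e-11). In bulk RNA, fewer cells in a cycle phase and less of an mRNA in each cell cannot be told apart. The one member that rose was SLBP, the binding protein of the histone mRNA stem-loop (from 118 and 116 to 282 and 296 CPM, log2 fold change 1.31, SE 0.064, adjusted p = 1.13e-11), which lies in the run of higher genes on chromosome 4.

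Mitotic genes fell in all 53 tested members, with a median of −1.16 (quartiles −1.29 and −1.01). CDK1, the mitotic kinase, was at 132 and 118 CPM in the vehicle libraries and 46.8 and 41.6 CPM in the TAK-981 libraries (log2 fold change −1.50, SE 0.077, adjusted p = 1.98e-11). MKI67, the proliferation marker, was at 1289.6 and 1228 CPM in the vehicle libraries and 479 and 513 CPM in the TAK-981 libraries (log2 fold change −1.34, SE 0.07, adjusted p = 2.63e-11). TOP2A, the topoisomerase of chromosome segregation, was at 621 and 555 CPM in the vehicle libraries and 215 and 221 CPM in the TAK-981 libraries (log2 fold change −1.43, SE 0.06, adjusted p = 1.87e-12). In these 3 genes the treated libraries were below the controls without overlap. CCNB1 fell by 0.78 on the log2 scale (adjusted p = 5.13e-08). The fall of PLK1 was 1.16 (adjusted p = 2.22e-09) and that of AURKA 1.26 (adjusted p = 6.83e-09), where the fitted fold changes were negative.

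Clustered histone genes, whose mRNAs are made in S phase and mostly lack a poly(A) tail, can be read here, as the RNA was not selected by poly(A). Of 58 tested, 52 fell and 2 rose, with a median of −1.06. HIST2H2BF went from 52.5 and 51.6 to 14.4 and 15.9 CPM (log2 fold change −1.78, SE 0.089, adjusted p = 1.51e-11) and HIST1H2AE from 144 and 141 to 52.5 and 51.6 CPM (log2 fold change −1.45, SE 0.066, adjusted p = 4.45e-12). The 2 that rose were HIST1H3E and HIST4H4. Copies of one histone share much of their sequence, so single copies are uncertain.

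Genes of the G1 cyclins, CDK inhibitors, RB and E2F families moved both ways. Of 27 tested, 17 fell (63.0%, against 23.7% of all genes) and 5 rose (18.5%, below the 25.2% of all genes), with a median of −0.31. E2F1 went from 67.2 and 73.9 to 20.2 and 26.7 CPM (log2 fold change −1.59, SE 0.13, adjusted p = 1.76e-08). The atypical repressor E2F8 fell with log2 fold change −1.72, SE 0.10, adjusted p = 1.99e-10 and CDK2 with log2 fold change −1.38, SE 0.10, adjusted p = 1.6e-09. CCND2, the D-type cyclin, went from 2361 and 2236 to 1332 and 1401 CPM (log2 fold change −0.75, SE 0.056, adjusted p = 3.18e-09). Among the CDK inhibitors, CDKN1C (p57) rose (0.78, adjusted p = 0.000115) and CDKN1B (p27) went from 289 and 289.7 to 413 and 369.9 CPM (log2 fold change 0.44, SE 0.066, adjusted p = 2.25e-05), whereas CDKN1A (p21) fell (from 63.3 and 60.5 to 49.6 and 55 CPM, log2 fold change −0.24, SE 0.07, adjusted p = 0.00771) and was no longer called without the first TAK-981 library, with adjusted p = 0.0774, or the first vehicle library, with adjusted p = 0.0684, and not called in 1 of 6 other settings, with only the groups compared. E2F5, a repressive E2F, rose by 0.94 (adjusted p = 3.37e-06).

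DNA repair and checkpoint genes fell in 38 of 46 tested members, and 1 rose, with a median of −1.06. BRCA1 was at 112 and 107 CPM in the vehicle libraries and 37.3 and 37.8 CPM in the TAK-981 libraries. The groups did not overlap (log2 fold change −1.55, SE 0.059, adjusted p = 5.56e-13). CHEK1, the checkpoint kinase, went from 90.2 and 82.8 to 28.9 and 29.1 CPM (log2 fold change −1.58, SE 0.074, adjusted p = 7.58e-12). The apical kinase ATR had −0.048 (adjusted p = 0.694), and LIG4, the ligase of non-homologous end joining, rose (0.47, adjusted p = 0.00117).

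MYC, the transcription factor of ribosome production and growth, was lower. It was at 354 and 356 CPM in the vehicle libraries and 224 and 219 CPM in the TAK-981 libraries. Both treated libraries lay below both controls (log2 fold change −0.68, SE 0.062, adjusted p = 4.45e-08). Of the 16 tested genes of the MYC, MAX, MXD and MondoA network 7 rose (43.8%, against 25.2% of all genes) and 4 fell. The share that fell was near the 23.7% of all genes, and the number that rose ran from 4 to 7 over the alternatives. MXD4, an antagonist that competes for MAX, went from 66.9 and 75.3 to 125 and 135 CPM (log2 fold change 0.87, SE 0.068, adjusted p = 5.4e-09), and MXI1, another antagonist, fell (−0.41, adjusted p = 0.000241). Alpha-arrestin ARRDC3, a relative of TXNIP, rose by 0.60 (adjusted p = 1.31e-06).

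Ribosome biogenesis genes, among the best known MYC targets, fell in 32 of 51 tested members and rose in 0, with a median of −0.29. The canonical E-box CACGTG was found in the promoters of 51.2% of the 43 with one, against 12.5% of the 11156 tested genes with one. Of tested genes with a promoter, it was found for 11.5% of those lower at least 2-fold and 12.2% of those lower under 2-fold. Whether the lower MYC caused the fall of the ribosome biogenesis genes was not tested. FBL, the nucleolar methyltransferase, went from 163 and 166 to 89.2 and 119.6 CPM (log2 fold change −0.66, SE 0.11, adjusted p = 0.0001), NCL from 597 and 569 to 405 and 466 CPM (log2 fold change −0.42, SE 0.074, adjusted p = 0.000118) and TCOF1, the Treacher Collins factor, from 113 and 120.4 to 60.6 and 71.9 CPM (log2 fold change −0.82, SE 0.087, adjusted p = 3.19e-07). Their groups did not overlap. Ribosomal protein genes were read apart from these. Of 78 tested for the cytosolic ribosome, 2 rose and 4 fell, and the median was 0.006, with a sign that depends on the scaling. Mitochondrial ribosomal proteins fell in 18 of 79 (22.8%, near the 23.7% of all genes) and rose in 5 (median −0.073, and −0.11 without the second TAK-981 library). Of the 192 tested small nucleolar and Cajal body RNAs 38 rose (19.8%, below the 25.2% of all genes) and 6 fell (median 0.21, and 0.078 without the second TAK-981 library). The number that rose ran from 16 to 45 over the alternatives. Most lie in introns of host genes, so that reads of host and small RNA cannot be told apart.

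Sterol and fatty acid synthesis genes, targets of SREBP factors, fell in 27 of 33 tested members and rose in 3, with a median of −0.79. INSIG1, which retains SREBP in the endoplasmic reticulum and is itself a target, went from 522 and 512 to 166 and 168 CPM (log2 fold change −1.63, SE 0.06, adjusted p = 3.85e-13). FADS1, the delta-5 desaturase, went from 109.9 and 101 to 30.9 and 28.2 CPM (log2 fold change −1.84, SE 0.08, adjusted p = 3.41e-12). Both lay lower in both treated libraries. FASN, fatty acid synthase, fell by 0.98 on the log2 scale (adjusted p = 3.78e-07). SREBF2 had −0.15 (adjusted p = 0.0565; called without the second TAK-981 library, with adjusted p = 0.00321, and called in 3 of 6 other settings). The 3 that rose were MVD (0.79, adjusted p = 1.04e-05) and PMVK, enzymes of the mevalonate pathway, and ACSS2, an acetyl-CoA synthetase.

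Glycolysis and hypoxia-response genes fell in 21 of 30 tested members and rose in 1, with a median of −0.59. LDHA, which makes lactate, was at 1079.9 and 915 CPM in the vehicle libraries and 353 and 454 CPM in the TAK-981 libraries (log2 fold change −1.31, SE 0.10, adjusted p = 2.15e-08). HK2, the inducible hexokinase, was at 101 and 88 CPM in the vehicle libraries and 35.6 and 48.6 CPM in the TAK-981 libraries (log2 fold change −1.17, SE 0.10, adjusted p = 4.7e-08). GAPDH, widely used as a reference gene, was at 1712 and 1617 CPM in the vehicle libraries and 932 and 1045 CPM in the TAK-981 libraries. It fell as well (log2 fold change −0.75, SE 0.069, adjusted p = 4.62e-08), so values scaled to GAPDH would stand higher than those here.

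Of the 34 genes of the ATF4 amino acid response, with amino acid transporters, serine synthesis enzymes and tRNA synthetases, 24 fell and 2 rose, with a median of −0.37. SLC7A5, the leucine transporter LAT1, went from 109 and 119.7 to 52.7 and 57.6 CPM (log2 fold change −1.05, SE 0.072, adjusted p = 9.4e-10). MTHFD2, the mitochondrial folate enzyme, went from 152 and 152 to 78.3 and 73.6 CPM (log2 fold change −1.0, SE 0.065, adjusted p = 4.53e-10). ATF4 itself had −0.20 (adjusted p = 0.0586; called without the second TAK-981 library, with adjusted p = 0.000458, or the first vehicle library, with adjusted p = 0.041, and called in 4 of 6 other settings), and DDIT3 (CHOP) rose (0.52, adjusted p = 0.000738).

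Plasma cells secrete antibody and depend on the endoplasmic reticulum. Of 31 tested secretion and unfolded protein response genes 17 fell (54.8%, against 23.7% of all genes) and 6 rose (19.4%, below the 25.2% of all genes). Their median was −0.30. MANF, an ER stress-induced secreted protein, went from 71.8 and 69.6 to 39.5 and 45.3 CPM (log2 fold change −0.74, SE 0.071, adjusted p = 7.99e-08) and the COPII coat subunit SEC24D fell (−0.89, adjusted p = 1.42e-08). The chaperone HSPA5 (BiP) had −0.17 (adjusted p = 0.127; called without the second TAK-981 library, with adjusted p = 0.00203, and called in 2 of 6 other settings) and XBP1 0.14 (adjusted p = 0.0841; called without the first TAK-981 library, with adjusted p = 0.036, and called in 1 of 6 other settings). ERO1B, an ER oxidase, moved against the list (from 9.91 and 10.1 to 57.9 and 44.4 CPM, log2 fold change 2.35, SE 0.12, adjusted p = 1.24e-11), and so did DERL3, of ER-associated degradation (from 107 and 114 to 129.5 and 145 CPM, log2 fold change 0.32, SE 0.065, adjusted p = 0.000544).

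Cytosolic chaperones fell in 13 of 21 tested members and rose in 0 (median −0.34). HSF1, their transcription factor, had 0.089 (adjusted p = 0.226). Proteasome subunits, the target of bortezomib in this disease, fell in 19 of 33 and rose in 1 (median −0.23), with PSMD14 at −0.60 (adjusted p = 8.33e-07) and PSMB5, the subunit bortezomib binds, at −0.15 (adjusted p = 0.301). Nuclear genes of oxidative phosphorylation fell in 16 of 55 and rose in 2 (median −0.13), which is 29.1% lower against 23.7% of all genes. The number that fell varied widely with the setting. Their median was −0.077 by upper quartile scaling and −0.18 by library size only.

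**Figure D4:**
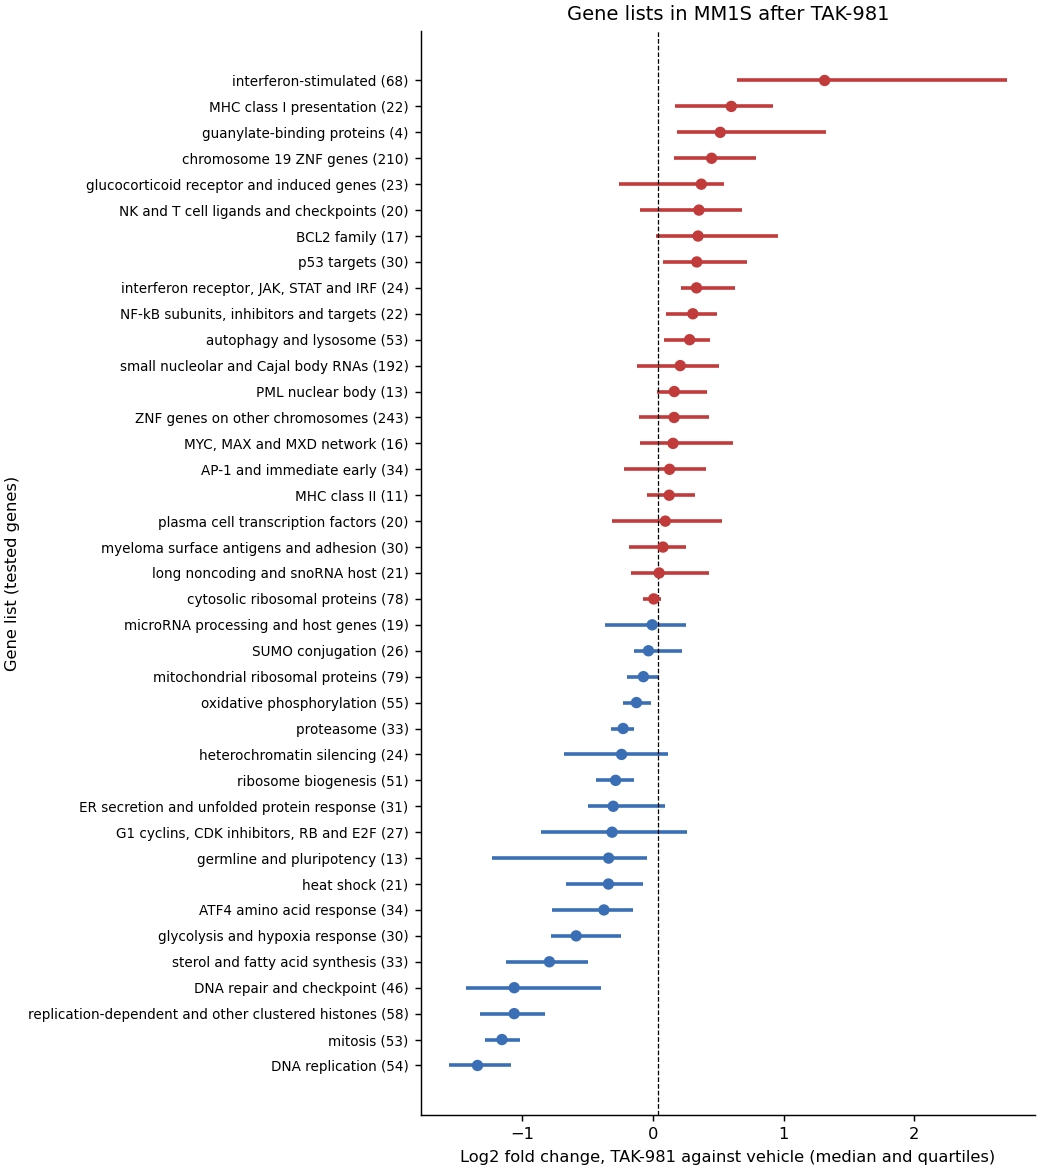
Median log2 fold change (point) and quartiles (line) of the tested genes of each list for TAK-981 against vehicle in MM1S, with the number of tested genes after each name. The dashed line is the median over all 14215 genes, and interferon-stimulated genes (1.31) and DNA replication genes (−1.34) mark the ends.

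Genes of the BCL2 family rose on both sides of the death decision. Of 17 tested, 12 rose and 2 fell, with a median of 0.35. Among the survival members, MCL1, on which myeloma cells depend, went from 664 and 708 to 972 and 1046 CPM (log2 fold change 0.56, SE 0.059, adjusted p = 3.55e-07), BCL2 from 231 and 226 to 299 and 281 CPM (log2 fold change 0.35, SE 0.054, adjusted p = 3.43e-05) and BCL2L1 (BCL-XL) from 443 and 469 to 569 and 617 CPM (log2 fold change 0.38, SE 0.063, adjusted p = 6.8e-05). Among the BH3-only killers, BMF went from 205 and 235 to 406 and 447 CPM (log2 fold change 0.95, SE 0.074, adjusted p = 4.71e-09) and BBC3 (PUMA) from 12.4 and 12.9 to 23.3 and 27.6 CPM (log2 fold change 1.01, SE 0.12, adjusted p = 2e-06), while PMAIP1 (NOXA), which neutralizes MCL1, fell (from 4.65 and 5.9 to 3.06 and 3.19 CPM, log2 fold change −0.75, SE 0.18, adjusted p = 0.00222). BCL2L11 (BIM), a mediator of Dex-induced death, had 0.027 (adjusted p = 0.723).

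Of 30 tested p53 target genes 17 rose and 4 fell (median 0.34). ZMAT3, an RNA-binding tumor suppressor, went from 16.3 and 17.2 to 69.4 and 50.9 CPM (log2 fold change 1.85, SE 0.13, adjusted p = 2.77e-09), PLK2 from 36.1 and 33.9 to 118 and 104 CPM (log2 fold change 1.66, SE 0.088, adjusted p = 2.83e-11) and MDM2, the ligase of p53, from 1094 and 1125 to 1785 and 1669 CPM (log2 fold change 0.64, SE 0.061, adjusted p = 8.1e-08). The members that fell included CDKN1A and FAS, given above, with the cyclin CCNG1 (−0.27, adjusted p = 0.00185) and the polymerase POLH (−0.24, adjusted p = 0.00332).

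Of 22 tested NF-κB genes 13 rose and 1 fell (median 0.31). BIRC3 (cIAP2) was at 223 and 211 CPM in the vehicle libraries and 912 and 693 CPM in the TAK-981 libraries. The treated libraries were far apart from each other and still above the controls (log2 fold change 1.89, SE 0.10, adjusted p = 2.85e-10). NFKBIA, the inhibitor IκBα, went from 35.1 and 37.9 to 61.5 and 69.4 CPM (log2 fold change 0.84, SE 0.091, adjusted p = 4.29e-07). RELB, of the non-canonical pathway that is often active in myeloma, rose by 0.78 (adjusted p = 2.22e-07), NFKB2 by 0.68 (adjusted p = 2.62e-07) and TNFAIP3 (A20) by 0.35 (adjusted p = 2.98e-05). The chemokine CCL3 fell (−0.60, adjusted p = 6.56e-06).

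Of 34 tested AP-1 and immediate early genes 11 rose (32.4%) and 6 fell (17.6%), against 25.2% and 23.7% of all genes (median 0.13). The median was 0.24 without the first TAK-981 library and 0.23 without the second vehicle library, and 0.034 without either of the other libraries. FOSL2 fell (from 19.7 and 21.7 to 6.17 and 7.41 CPM, log2 fold change −1.61, SE 0.11, adjusted p = 8.61e-10), and JUN had −0.03 (adjusted p = 0.842). The antiproliferative BTG2 rose (from 944 and 1009.9 to 1528 and 1688 CPM, log2 fold change 0.72, SE 0.059, adjusted p = 9.7e-09).

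Autophagy and lysosome genes rose in 35 of 53 tested members and fell in 4, with a median of 0.28 (quartiles 0.083 and 0.44). Of the lysosomal cathepsins, CTSS went from 91.3 and 84.5 to 196 and 179 CPM (log2 fold change 1.09, SE 0.066, adjusted p = 1.73e-10) and CTSZ from 15.7 and 17.8 to 37.7 and 37.7 CPM (log2 fold change 1.17, SE 0.088, adjusted p = 3.3e-09). SQSTM1 (p62), a cargo receptor, went from 354 and 371 to 501 and 595 CPM (log2 fold change 0.60, SE 0.086, adjusted p = 1.81e-05), and TFEB, the regulator of lysosome genes, rose by 0.42 (adjusted p = 0.000767). The kinases ULK1 and ULK2, which start autophagy, moved in opposite directions: ULK1 had 0.48, adjusted p = 0.000188, and ULK2 had −0.99, adjusted p = 1.5e-06.

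Plasma cell identity genes moved both ways. Of 20 tested transcription factors of the lineage 7 rose and 5 fell (median 0.095, and 0.0068 without the first TAK-981 library). IRF4, on which myeloma cells depend, was at 1197 and 1254 CPM in the vehicle libraries and 774 and 841 CPM in the TAK-981 libraries. Both treated libraries were below the controls (log2 fold change −0.60, SE 0.058, adjusted p = 7.87e-08). IKZF3 (Aiolos), a target of lenalidomide, went the other way (from 576 and 573 to 927 and 890.4 CPM, log2 fold change 0.66, SE 0.051, adjusted p = 4.5e-09). MAF, which a chromosomal translocation drives in this line, went from 1466 and 1555 to 2279 and 2188 CPM (log2 fold change 0.56, SE 0.054, adjusted p = 8.91e-08). PRDM1 (BLIMP1) had −0.05 (adjusted p = 0.471). Of 30 tested surface antigens and adhesion receptors 12 rose (40.0%) and 7 fell (23.3%, near the 23.7% of all genes). CD38, the target of daratumumab, went from 17.2 and 14 to 27.2 and 25.3 CPM (log2 fold change 0.75, SE 0.092, adjusted p = 2.2e-06). SLAMF7, the target of elotuzumab, went from 758 and 755 to 643 and 618 CPM (log2 fold change −0.26, SE 0.051, adjusted p = 0.000342). TNFRSF17 (BCMA) had log2 fold change −0.19, SE 0.065, adjusted p = 0.0233 and was no longer called without the first TAK-981 library, with adjusted p = 0.0525, the first vehicle library, with adjusted p = 0.116, or the second vehicle library, with adjusted p = 0.059, and not called in 2 of 6 other settings. GPRC5D, another antibody target, fell (−0.58, adjusted p = 5e-06).

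Of 23 tested genes of the glucocorticoid receptor, its chaperones, coregulators and induced genes 13 rose and 6 fell in the absence of Dex (median 0.37). These are 56.5% higher, against 25.2% of all genes, and 26.1% lower, near the 23.7% of all genes. NR3C1, the receptor, went from 283 and 277 to 357 and 318 CPM (log2 fold change 0.27, SE 0.07, adjusted p = 0.00373; not called in 1 of 6 other settings, only the groups compared). Its induced gene TSC22D3 (GILZ) rose (from 38.3 and 44.4 to 49.7 and 58.3 CPM, log2 fold change 0.39, SE 0.092, adjusted p = 0.0019; no longer called without the first vehicle library, with adjusted p = 0.0547), and FKBP5, a chaperone and classical induced gene, fell (from 68.6 and 69 to 40.3 and 43.7 CPM, log2 fold change −0.71, SE 0.068, adjusted p = 7.98e-08).

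Of 19 tested microRNA processing and host genes 5 rose (26.3%, near the 25.2% of all genes) and 7 fell (36.8%, against 23.7%). MCM7, whose intron holds miR-25, went from 209 and 215 to 98.7 and 115 CPM (log2 fold change −0.99, SE 0.074, adjusted p = 3.27e-09). DROSHA fell (−0.28, adjusted p = 0.00276) and DICER1 had −0.073 (adjusted p = 0.413). MicroRNAs themselves were not analysed here. Among long noncoding RNAs 7 of 21 rose (33.3%, against 25.2% of all genes) and 5 fell (23.8%, near the 23.7% of all genes). MALAT1 held 2.85% and 3.01% of all counts with vehicle and 5.22% and 5.30% with TAK-981 (log2 fold change 0.89, SE 0.054, adjusted p = 1.73e-10). NEAT1, the scaffold of paraspeckles, had 0.65 (adjusted p = 0.0768; called in 3 of 6 other settings), and HCP5, in the MHC region, rose (from 13.2 and 14.4 to 49.5 and 49.5 CPM, log2 fold change 1.85, SE 0.081, adjusted p = 3.49e-12). A germline gene list had 13 tested members, of which 1 rose (7.69%, against 25.2% of all genes) and 4 fell (30.8%, against 23.7%).

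The same treatment was read in MM1R, from libraries that share none with MM1S. There 3666 genes rose (25.8%) and 3926 fell (27.6%), and with upper quartile scaling the counts were 4438 and 3144. Interferon-stimulated genes had a median of 1.76 in MM1R and 1.31 in MM1S, with 64 of 68 higher in MM1R. Replication genes had −1.0 and −1.34, mitotic genes −0.78 and −1.16, and sterol synthesis genes −0.58 and −0.79. The difference of the effects, MM1R minus MM1S, was tested for each gene. It was positive for 453 genes (3.19%) and negative for 139 genes (0.978%). These counts move with single libraries. Without the first TAK-981 library of MM1S they were 1186 and 1106. Without any 1 of the 4 MM1R libraries or the 2 MM1S vehicle libraries they lay between 169 and 256 and between 31 and 64. Of the interferon-stimulated genes 21 differed in the positive direction and 0 in the negative. MX1 rose by 5.05 in MM1R against 3.67 in MM1S (difference 1.38, SE 0.10, adjusted p = 4.03e-07), and XAF1 by 6.39 against 3.95 (difference 2.44, SE 0.24, adjusted p = 3.23e-05). MX2 and SLFN5, other interferon-stimulated genes, rose in MM1S by 2.69 and 1.02, with differences of 2.49, SE 0.24, adjusted p = 2.05e-05 and 1.33, SE 0.12, adjusted p = 4.73e-06. Of the mitotic genes 25 differed in the positive direction, that is with a smaller fall in MM1R, and of the replication genes 15 did. MCM4 had −1.46 in MM1R and −1.96 in MM1S (difference 0.51, SE 0.10, adjusted p = 0.00678). WDR76, a DNA damage-binding repeat protein, had −0.99 and −1.85 (difference 0.86, SE 0.09, adjusted p = 3.23e-05). The few negative differences included GRHL3, a grainyhead factor (−0.25 in MM1R, 0.97 in MM1S, difference −1.23, SE 0.084, adjusted p = 2.73e-07), SLBP (0.68 and 1.31, difference −0.63, SE 0.089, adjusted p = 0.000553) and DERL3 (−0.47 and 0.32, difference −0.78, SE 0.092, adjusted p = 9.35e-05).

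**Figure D5:**
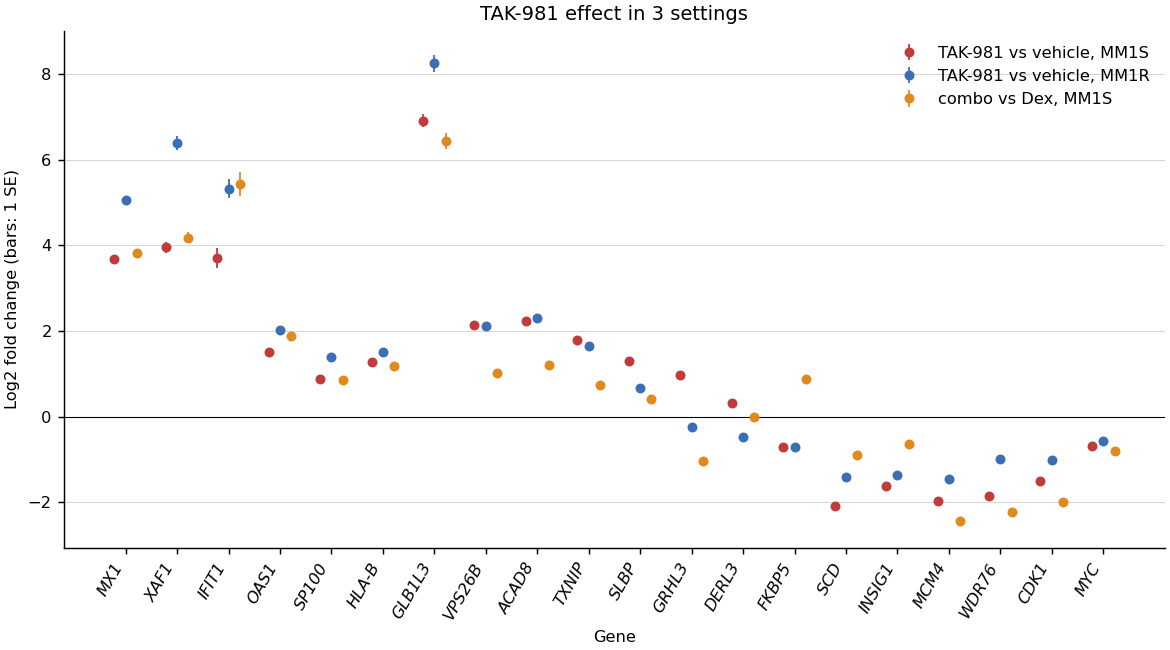
Log2 fold change with 1 SE for 20 genes in 3 comparisons that share no library: TAK-981 against vehicle in MM1S (red), TAK-981 against vehicle in MM1R (blue), and TAK-981 added to Dex in MM1S (orange). MX1 lies at 3.67 in MM1S, and GRHL3 lies above 0 in MM1S without Dex and below 0 with it.

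TAK-981 was also read on a background of Dex, as combo against Dex in MM1S. There 3159 genes rose (22.2%) and 3606 fell (25.4%), and with upper quartile scaling the counts were 4176 and 2788. The difference of the TAK-981 effects, with Dex minus without, was positive for 777 genes (5.47%) and negative for 1348 genes (9.48%). With scaling by library size only the counts were 1033 and 908, and without the first TAK-981 library they were 1447 and 2277. Without the first vehicle library they were 373 and 671, without the second 495 and 853, without the second Dex library 402 and 700, and without the first combo library 416 and 692. Sterol synthesis genes had medians of −0.48 with Dex and −0.79 without, with 14 of 33 differing in the positive direction and 2 in the negative. SCD had −0.89 with Dex and −2.09 without (difference 1.19, SE 0.10, adjusted p = 3.89e-07), and INSIG1 had −0.63 and −1.63 (difference 1.00, SE 0.086, adjusted p = 5.18e-07). Mitotic genes had medians of −1.51 and −1.16, with 23 in the negative direction and 0 in the positive. FKBP5 had 0.88 with Dex and −0.71 without (difference 1.59, SE 0.091, adjusted p = 5.71e-09). GRHL3 rose without Dex and had −1.05 with it (difference −2.02, SE 0.083, adjusted p = 3.98e-11). TXNIP had 0.74 and 1.79 (difference −1.05, SE 0.093, adjusted p = 7.04e-07). Of the genes in the chromosome 11 run, VPS26B had 1.02 and 2.13 (difference −1.11, SE 0.092, adjusted p = 3.28e-07) and ACAD8 1.20 and 2.23 (difference −1.03, SE 0.10, adjusted p = 1.23e-06). Interferon-stimulated genes had medians of 1.23 with Dex and 1.31 without, with 9 differing in the positive direction and 15 in the negative. Cytosolic ribosomal proteins, which hardly moved without Dex, had a median of −0.26 with it, and 24 of 78 differed in the negative direction.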

How the data were processed

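RNA from MM1S and MM1R cells of 8 groups, 2 libraries each, was sequenced. The authors deposited 1 table of whole-number read counts per gene symbol with hg19 coordinates, and these counts were used as deposited. The submitters' processing notes name hg19, bcl2fastq 2.18.0.12, STAR 2.6.0, HTSeq 0.6.0 and edgeR 3.28.1, and the strand setting of the counting was not given in the sources used here. The table was read through all of its count columns, leaving 0 unused.

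Groups were taken from the labels. Genes were filtered with filterByExpr, scaled by TMM and tested with edgeR 4.0.16 (R 4.3.3, limma 3.58.1) by its robust quasi-likelihood F test, with all 16 libraries in 1 fit so that the groups of 2 share their estimate of the spread. P-values are two-sided and were adjusted by Benjamini-Hochberg over all genes tested, with a threshold of 0.05. CPM is counts per 1e6 effective counts, and log2 CPM of the principal components used a prior count of 2. The interactions compare TAK-981 effects that share no library. The procedure was tested on simulated data.

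Gene lists (39) were written from general knowledge. The comparison, the lists and the rules were chosen with earlier results of these data known, so no list is independent evidence. Lists are described by counts and medians, with no test. Genes were named by these rules: the 10 higher and 10 lower genes of smallest adjusted p with a change of at least 2-fold, no overlap of the groups and a mean log2 CPM not under 3; the 5 largest changes in each direction; key genes and the leading called members of each list; genes switched on from 3 counts or fewer; and the leading called genes of each interaction. Genes named otherwise are said to be, and some genes that the rules name are not reported here. Promoters came from RefSeq (GRCh38.p14), matched by symbol, and hg19 coordinates were not converted.

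Depth was 18998753 to 20644510 counts in the 4 libraries. Alternatives were other scalings (RLE, upper quartile, library size), no filter, a replicate block, DESeq2 1.42.0, only the groups compared, a 2-fold minimum, and leaving out each library. A lone remaining library was then assumed to vary like the other groups.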

Additional observations from a re-analysis of the deposited data

Results flagged for a closer look

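For 44 genes named above the TAK-981 effect differed between the lines, as the difference of log2 fold changes, MM1R minus MM1S, passed edgeR's test at an adjusted p under 0.05. 39 were positive and 5 negative. Over all genes tested, 3.19% differed in the positive direction and 0.978% in the negative. Some of the named genes were chosen by their small p in this same test. The counts of 39 and 5 therefore describe the named genes only. Values of the differences are given in parentheses. Between the lines, among interferon, PML body and antigen presentation genes positive differences were seen for MX2 (2.49), XAF1 (2.44), IFIT1 (1.62), MX1 (1.38), SLFN5 (1.33), GBP1 (0.84), HCP5 (0.67), JAK2 (0.64), CIITA (0.59), SP100 (0.52), OAS1 (0.51), HLA-DRA (0.48) and MICB (0.39). Among replication, repair, mitotic and histone genes positive differences were seen for WDR76 (0.86), CHEK1 (0.70), CLSPN (0.67), HIST2H2BF (0.65), BRCA1 (0.64), E2F8 (0.63), CDC6 (0.58), TOP2A (0.56), MKI67 (0.54), MCM4 (0.51), CDK1 (0.49), MCM6 (0.44), CCND2 (0.44), HIST1H2AE (0.40) and CDKN1A (0.39). Between the lines, among replication, repair, mitotic and histone genes negative differences were seen for SLBP (−0.63). Among chromatin and ZNF genes and the genes on the chromosome 4, 11 and 20 runs positive differences were seen for ZNF208 (1.13), SUV39H2 (0.62) and EZH2 (0.39). Between the lines, among chromatin and ZNF genes and the genes on the chromosome 4, 11 and 20 runs negative differences were seen for FAM53A (−1.53) and NCAPD3 (−0.40). Among metabolic and endoplasmic reticulum genes positive differences were seen for SCD (0.68) and FADS1 (0.57). Between the lines, among metabolic and endoplasmic reticulum genes negative differences were seen for DERL3 (−0.78). Among the remaining genes positive differences were seen for GPC6 (1.27), PMAIP1 (0.90), MYB (0.70), TSC22D3 (0.50), MXI1 (0.46) and BCL2 (0.37). Between the lines, among the remaining genes negative differences were seen for GRHL3 (−1.23).

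For 66 genes named above the TAK-981 effect in MM1S differed with Dex present, as the difference of log2 fold changes, with Dex minus without, passed the same test. 23 were positive and 43 negative. Over all genes tested, 5.47% differed in the positive direction and 9.48% in the negative. Here too some of the named genes were chosen by their small p in this test. With Dex, among interferon, PML body and antigen presentation genes positive differences were seen for MX2 (1.89), IFIT1 (1.74), GBP2 (0.90), CIITA (0.49), HCP5 (0.49) and OAS1 (0.36). With Dex, among interferon, PML body and antigen presentation genes negative differences were seen for GBP4 (−1.47), ICAM1 (−0.71), TAP1 (−0.67), IRF7 (−0.59) and IFNGR1 (−0.44). With Dex, among replication, repair, mitotic and histone genes positive differences were seen for CDKN1C (1.16), HIST2H2BF (0.43) and MCM7 (0.36). With Dex, among replication, repair, mitotic and histone genes negative differences were seen for RRM2 (−1.12), UHRF1 (−1.10), E2F1 (−0.95), SLBP (−0.90), CLSPN (−0.81), CDC6 (−0.73), PLK1 (−0.65), CDK1 (−0.50), MCM4 (−0.46), CCNB1 (−0.43), WDR76 (−0.38), TOP2A (−0.37) and BRCA1 (−0.33). With Dex, among chromatin and ZNF genes and the genes on the chromosome 4, 11 and 20 runs positive differences were seen for DNMT1 (0.41), ATRX (0.37) and ATF7IP (0.35). With Dex, among chromatin and ZNF genes and the genes on the chromosome 4, 11 and 20 runs negative differences were seen for VPS26B (−1.11), ACAD8 (−1.03) and ZNF763 (−0.76). With Dex, among metabolic and endoplasmic reticulum genes positive differences were seen for SCD (1.19), INSIG1 (1.00), SEC24D (0.55) and MTHFD2 (0.30). The autophagy kinase ULK2 (0.72) also had a positive difference. With Dex, among metabolic and endoplasmic reticulum genes negative differences were seen for DDIT4L (−1.72), TXNIP (−1.05), DERL3 (−0.33), SREBF2 (−0.33) and XBP1 (−0.33). Autophagy and lysosome genes with negative differences were CTSZ (−0.63), CTSS (−0.53) and SQSTM1 (−0.53). With Dex, among the remaining genes positive differences were seen for FKBP5 (1.59), PMAIP1 (1.03), CD38 (0.92), MXI1 (0.64), IRF4 (0.32) and BCL2L11 (0.27). With Dex, among the remaining genes negative differences were seen for POU3F1 (−2.04), GRHL3 (−2.02), PLK2 (−1.07), MXD4 (−0.78), BTG2 (−0.63), CCL3 (−0.61), BCL2L1 (−0.58), BMF (−0.57), PCDH1 (−0.56), MAF (−0.48), IKZF3 (−0.47), NFKB2 (−0.46), TNFAIP3 (−0.46) and NFKBIA (−0.39).

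Groups of 2 libraries were too small for a check of single libraries that stand apart. Genes with both libraries of a group at 3 counts or fewer were left out here, and calls of these differences for single genes were made with all libraries only. The causes of these differences were not tested.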

How the results depend on the processing

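TAK-981 against vehicle in MM1S gave between 5215 and 7830 calls over the alternative scalings, filters, tools and sample sets, and between 5248 and 6810 without 1 of its 4 libraries, against 6960. With a log2 fold change of at least 1 required, calls were 1412 in MM1S (728 higher and 684 lower), 1369 in MM1R and 1400 on Dex, 80 (68 and 12) for the difference between the lines and 259 (159 and 100) for that with Dex, where fewer genes qualify by construction. For the difference between the lines, no filter on low counts gave 1313 calls (832 positive and 481 negative), and leaving out 1 library gave 200 to 2292 (169 to 1186 and 31 to 1106), against 592. For the difference with Dex, a fit of only the groups compared gave 779 (292 and 487), and leaving out 1 library gave 1044 to 3724 (373 to 1447 and 671 to 2277), against 2125. Upper quartile scaling gave 914 and 1001. The cause of these shifts was not tested.

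The labels number the replicates 1 and 2 in each group, and nothing in them says that a number marks a shared culture or day. Differences between replicates 1 and 2 correlated across genes at r = 0.343 between the TAK-981 and vehicle groups of MM1S, at 0.152 to 0.618 over pairs of MM1S groups and at 0.0719 to 0.252 over those of MM1R. With a replicate block within each line, calls were 7830 in MM1S (4028 and 3802), 8438 in MM1R, 7699 on Dex, 2061 for the difference between the lines (1114 and 947) and 3579 for that with Dex (1383 and 2196). Of the genes given with values 5 gained a call in MM1S with the block (ATF4, HSPA5, SREBF2, TRIM28 and XBP1).

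Of 172 genes given with values, 153 kept their direction and their side of the threshold in TAK-981 against vehicle in MM1S under all 11 settings that refit it. Calls were lost under at least 1 setting for 8 and gained for 7. The sign changed for 4 uncalled genes: ATR (−0.1721 to 0.0623 without 1 library), BCL2L11 (−0.0223 by library size, −0.0186 to 0.069 without 1 library), HLA-DRA (0.0313 by upper quartile, −0.0906 to 0.056 without 1 library) and JUN (0.0195 by upper quartile, −0.2356 to 0.1462 without 1 library). Of 39 list medians 4 near 0 changed sign. SUMO conjugation was at 0.0138 by upper quartile and −0.0753 to 0.0769 without 1 library. Cytosolic ribosomal proteins were at −0.0121 by RLE and by DESeq2, −0.0431 by library size, −0.0008 without a filter, −0.0202 with only the groups compared and −0.0399 to 0.0233 without 1 library. Long noncoding RNAs were at −0.0015 by library size, and microRNA genes at 0.0425 by upper quartile, 0.0247 with only the groups compared and −0.1113 to 0.0369 without 1 library. Genes at a few counts are limited by depth.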

Other observations

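EXD3, an exonuclease domain gene on chromosome 9 (140201348 to 140317714 in hg19), was singled out after its values were seen. It had 38188 counts in the second TAK-981 library of MM1S and 148 in the first, and 28410 counts in the first Dex library of MM1R and 62 in the second. The other 14 libraries, those replicates included, held between 62 and 169 counts. Its fitted log2 fold change for TAK-981 in MM1S was 7.19, with an adjusted p of 0.062 by edgeR, so a single library carries this value. Without EXD3 the chi-square per degree of freedom of the TAK-981 pair went from 21.7 to 19.1, below the 19.5 of the MM1S Dex pair.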
